A study of Cordyceps militaris with 6 samples.

Results

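The genes described here are those that the annotation of Cordyceps militaris calls ABC transporters, amino acid permeases or transporters, and oligopeptide or peptide transporters. The rule reads the words of the product description and no expression value. Descriptions with the words major facilitator or MFS were left out, as was CCM_04439. The choice gave 114 of the 10385 genes in the expression table: 57 ABC genes, 29 amino acid genes and 28 peptide genes, with no gene in more than 1 family. A few names are wider than transport. CCM_07132 is an ABC protein of subfamily F, a group without membrane-spanning parts, CCM_05905 is the chaperone Shr3, and CCM_05906 is named after arg-13, a mitochondrial carrier in Neurospora.

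The series follows the YCC strain of C. militaris, an insect-pathogenic fungus grown for its fruiting bodies, through serial subculture. It asks how the transcriptome diverges as a strain degenerates. Polyadenylated RNA was sequenced from mycelium grown for 72 h in the dark in shaken liquid medium with glucose, peptone and yeast extract. There was 1 library for each of passages 1 to 6, and the only label that differs between them is the passage number.

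ABC proteins use ATP to move substrates across membranes. In fungi the pleiotropic drug resistance and multidrug types pump toxic compounds and secondary metabolites out of the cell, and others serve the vacuole, the mitochondria and the peroxisome. Amino acid permeases of the plasma membrane take up amino acids together with protons, and in yeast they need the chaperone Shr3 to leave the endoplasmic reticulum. Oligopeptide transporters of the OPT family take up short peptides, and PTR2-type carriers take up di- and tripeptides that secreted proteases release.

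Library depth ran from 9740171 expected counts in passage 1 to 13813999 in passage 2. Passage 1 was the shallowest library and differed from the other 5 across the whole transcriptome, also by gene length: the median log2 difference of passages 2 to 6 over passage 1 was 0.43 in the shortest of 3 equal groups by length of the tested genes and -0.30 in the longest group. Of 8758 genes tested by edgeR's quasi-likelihood test with Benjamini-Hochberg adjustment, 2103 (24.0%) had an adjusted p under 0.05 between passage 1 and passages 2 to 6. With 1 library a passage, this test takes its spread from passages 2 to 6 and assumes that passage 1 varies like them, and nothing in the labels says whether the later passages came from separate lineages. The 7 genes with words of conidiation, the forming of spores, summed to 328.3 FPKM in passage 1 and to between 62.8 and 138.3 FPKM in the later passages. Of the 5 tested, 3 fell, among them AbaA (CCM_05444) and Con-13 (CCM_00714), which had 231.7 and 53.4 FPKM of the passage 1 sum, and 2 of the 7 were at 0 in passage 1. Of the others, a second gene named AbaA (CCM_06097) had 2.83 FPKM in passage 1 and 3.60 to 4.88 FPKM later (0.33, adjusted p = 0.377), and CCM_05902 was at 0 in passage 1 and at 0.76 to 2.72 FPKM later. The part of spores or of gene length in the results below was not tested beyond the length-adjusted values given, and fewer cells of a type and less RNA per cell cannot be told apart in bulk RNA.

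The transporter families took more of the library in passage 1 than in any later passage. Together they made up 1.32% of all expected counts in passage 1 and 0.901%, 0.854%, 1.00%, 0.889% and 0.971% in passages 2 to 6. The ABC genes took 0.688% in passage 1 (Wilson 95% interval 0.683% to 0.693%, counting error only) and 0.413% to 0.528% later. The amino acid genes took 0.359% (0.355% to 0.363%) and later 0.230% to 0.265%, and the peptide genes 0.278% (0.274% to 0.281%) and later 0.200% to 0.216%. In each family passage 1 lay above the whole range of the later libraries. Among passages 2 to 6 the ABC share was highest in passage 4 and lowest in passage 3.

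**Figure D1:**
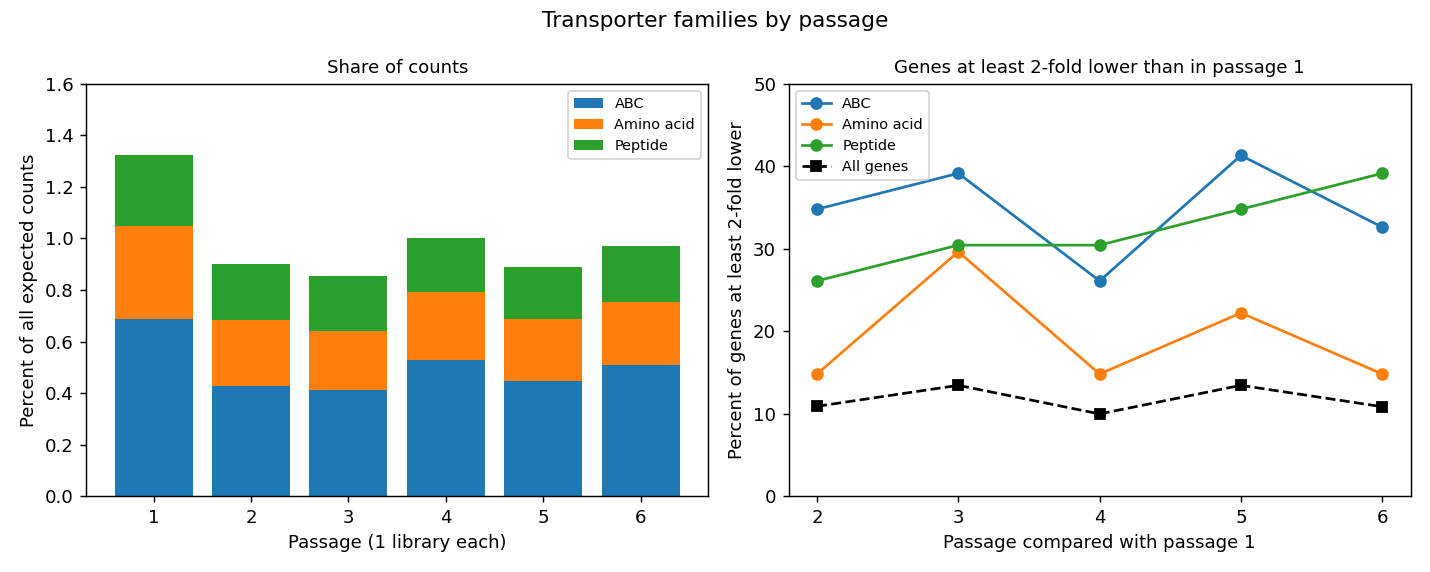
The left panel stacks the percent of all expected counts held by the ABC, amino acid and peptide genes in each of the 6 libraries, and the right panel gives the percent of genes of each family at least 2-fold lower than in passage 1, with all genes as black squares. Passage 1 has the tallest bar, at 1.32%, and the 3 family lines lie above the line of all genes, which runs from 9.97% to 13.4%.

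Per gene and per length the families stood at different levels. In FPKM (fragments scaled to gene length and library size), averaged over the 6 libraries, the median of the 29 amino acid genes was 37.1. The median of the 57 ABC genes was 5.91 FPKM and that of the 28 peptide genes 6.54 FPKM. A mean above 100 FPKM was reached by 5 amino acid, 3 ABC and 1 peptide gene, the latter being CCM_06761 with 475 FPKM, the highest of all 114. Another 18 genes, 11 of them ABC, had a mean below 1 FPKM, and 4 ABC genes (CCM_01402, CCM_06916, CCM_07122 and CCM_07289) had no count in any library. After the filter on low counts 102 genes entered the tests, 51 ABC, 27 amino acid and 24 peptide genes, and the other 12 were too low.

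Between passage 1 and the later passages the transporters that changed mostly fell. By edgeR's test, 27 of the 102 fell and 4 rose at an adjusted p under 0.05, and among all 8758 genes 14.4% fell and 9.58% rose. The median log2 difference, passages 2 to 6 over passage 1, was -0.43 for the transporters and 0.05 for all genes. Of the ABC genes 14 fell and 3 rose (median -0.49), of the amino acid genes 7 fell and 0 rose (median -0.40), and of the peptide genes 6 fell and 1 rose (median -0.29). No amino acid gene was higher at an unadjusted p under 0.05 either (0 genes), and DESeq2 and limma also called 0 higher, although limma on log2(FPKM + 1) had 2 higher at an unadjusted p under 0.05. Levels before any test pointed the same way. Of the 96 genes that averaged 1 FPKM or more, 50 were above all 5 later passages in passage 1 after TMM scaling, against 33.8% of all genes, and 14 were below all of them, against 35.4%.

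Transporter genes are longer than most, and the calls were also made with gene length taken into account. The median tested ABC gene was 4.28 kb, the median peptide gene 2.40 kb and the median amino acid gene 1.67 kb, against 1.39 kb for all genes. With each library's trend in gene length removed, 17 of the 102 fell and 6 rose, where 10.2% of all genes fell and 5.72% rose, and the median difference became -0.17. The ABC genes then counted 8 fallen and 5 risen with a median of 0.08, the opposite sign of -0.49. The amino acid genes counted 5 fallen and 0 risen with a median of -0.27, and the peptide genes 4 fallen and 1 risen with a median of -0.05.

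**Figure D2:**
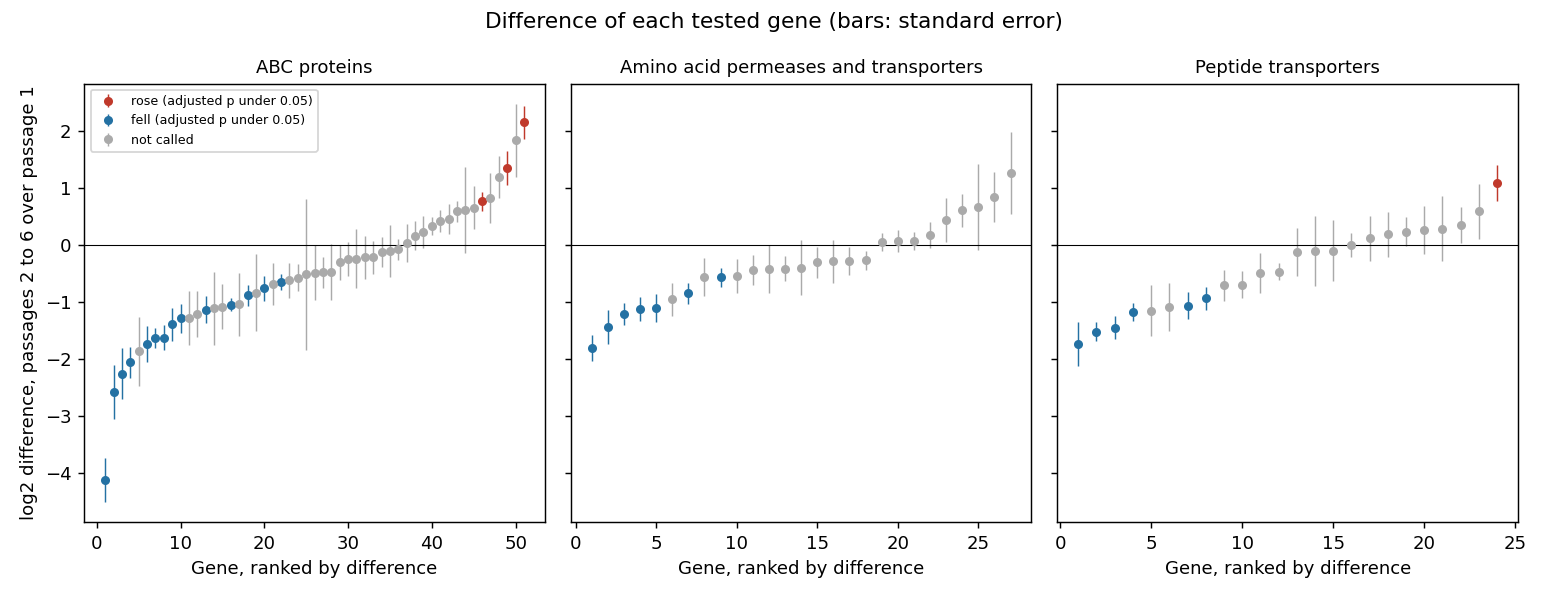
Each point is 1 tested gene of the ABC (51), amino acid (27) or peptide (24) family, ranked by its log2 difference of passages 2 to 6 over passage 1 (vertical axis), with the standard error as a bar; blue points fell, red points rose and grey points were not called. The lowest point is CCM_08739 at -4.13, and blue points outnumber red in each panel.

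The ABC gene that moved most was CCM_08739, a transporter whose substrate the annotation does not name. It had 281 FPKM in passage 1 and 12.6, 25.4, 28.8, 11.3 and 18.2 FPKM in passages 2 to 6, and no later library came near passage 1. Its log2 difference was -4.13 (SE 0.39, adjusted p = 0.00339 by edgeR), which is 17.5-fold lower, and after removal of the length trend it was -3.52 (adjusted p = 0.00633). This gene was called in all 11 alternatives run. In passage 1 it had the highest level of the ABC genes, and in every later passage CCM_07991 was far above it.

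CCM_03607, an ABC transporter-like protein, had 130.0 FPKM in passage 1 and 15.1, 18.3, 49.1, 21.3 and 26.4 FPKM later. It fell by 2.57 on the log2 scale (SE 0.48, adjusted p = 0.0120). The multidrug transporter Mdr1 (CCM_02386), named after pumps that export drugs, had 65.1 FPKM in passage 1 and 12.9, 18.5, 25.9, 16.3 and 19.6 FPKM later. It fell by 2.06 (SE 0.27, adjusted p = 0.00472), 4.16-fold. CCM_02004, annotated only by its transmembrane domain of type 1, had 31.5 FPKM in passage 1 and 4.64, 5.55, 12.2, 5.86 and 11.01 FPKM later, and fell by 2.25 (SE 0.45, adjusted p = 0.0153). In all of these genes passage 1 lay above every later library and passage 4 was the highest of the later ones.

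Other ABC genes fell as well. CCM_04100 went from 52.7 FPKM to between 17.1 and 23.5 FPKM (log2 -1.63, SE 0.18, adjusted p = 0.00345), and CCM_04460 from 35.9 FPKM to between 10.8 and 16.9 FPKM (-1.62, adjusted p = 0.00517). The gene for Adp1 (CCM_06022), named after a yeast ABC protein, had 69.0 FPKM in passage 1 and 39.6, 40.2, 39.3, 38.7 and 40.7 FPKM later, nearly the same level in all 5 later libraries. It fell by 1.04 (SE 0.12, adjusted p = 0.00345), and by 0.58 after removal of the length trend (adjusted p = 0.0306). CCM_04201 (log2 -1.74, adjusted p = 0.0107), CCM_08076 (-1.39), CCM_07501 (-1.28) and CCM_08059 (-1.14) also fell, with adjusted p from 0.0107 to 0.0175. Their calls did not hold with the length trend removed, where the adjusted p were 0.0523, 0.0971, 0.0931 and 0.257. The same was true of the subfamily F protein CCM_07132, at 252 FPKM in passage 1 and 178 to 216 FPKM later (-0.65, adjusted p = 0.0197, and 0.0578 with length removed); proteins of this subfamily act at the ribosome rather than in membranes.

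The 3 ABC genes that rose were at very different levels. CCM_07991 was the most abundant ABC gene over the series, with a mean of 313 FPKM. It had 117 FPKM in passage 1 and 365, 271, 320, 384 and 421 FPKM in passages 2 to 6, every later library being above passage 1. It rose by 1.35 on the log2 scale (SE 0.30, adjusted p = 0.0204), 2.55-fold, and by 1.95 after removal of the length trend (adjusted p = 0.0167). CCM_07735 was scarce, with 0.51 FPKM in passage 1 and 2.46, 2.50, 2.69, 2.63 and 3.26 FPKM later. It rose by 2.16 (SE 0.29, adjusted p = 0.00499), and its sequence and gene model are taken up below. CCM_04091 rose by 0.77 (SE 0.17, adjusted p = 0.0220), with 8.96 FPKM in passage 1 and 16.8 to 19.2 FPKM later, a call that ended without passage 3 (adjusted p = 0.0507).

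Several named ABC genes were not called, and their libraries differed widely. CDR4 (CCM_06618), named after a member of the Candida drug resistance family, had 178 FPKM in passage 1 and 25.7, 34.6, 111, 48.9 and 71.4 FPKM later. Its log2 difference was -1.87 (SE 0.60, adjusted p = 0.0625), and passage 4 was the library nearest to passage 1. Without passage 4 the difference was -2.21 (adjusted p = 0.0306), and DESeq2 gave an adjusted p of 0.0126. VMR1 (CCM_03167), in yeast a transporter of the vacuole membrane, had 5.72 FPKM in passage 1, 5.37 FPKM in passage 4 and 2.27 to 2.92 FPKM in the other later passages. Its difference of -1.08 had an adjusted p of 0.0864, and 0.0169 without passage 4. The peroxisomal ABC transporter CCM_00996, of a type that brings fatty acids into peroxisomes, had 18.8 FPKM in passage 1 and 19.8 to 29.9 FPKM later (0.17, adjusted p = 0.657). The multidrug transporter SitT (CCM_09005) ran from 0.58 to 2.01 FPKM over the 6 libraries (0.62, adjusted p = 0.576). It was listed as higher than in passage 1 in 3 of the authors' 5 deposited tables.

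CCM_06538 varied most among the later passages. It had 40.8 FPKM in passage 1 and 8.36, 3.61, 64.0, 22.6 and 71.2 FPKM in passages 2 to 6. Passage 3 was 13.8-fold below passage 1, passages 4 and 6 were above it, and the highest and lowest of the later libraries were 20.4-fold apart. The log2 difference from passage 1 was -0.52 (SE 1.32, adjusted p = 0.799). Only this gene and CDR4 (4.09-fold) were at least 4-fold apart among passages 2 to 6, out of the same 96 genes, where 4.57% of all genes were.

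**Figure D3:**
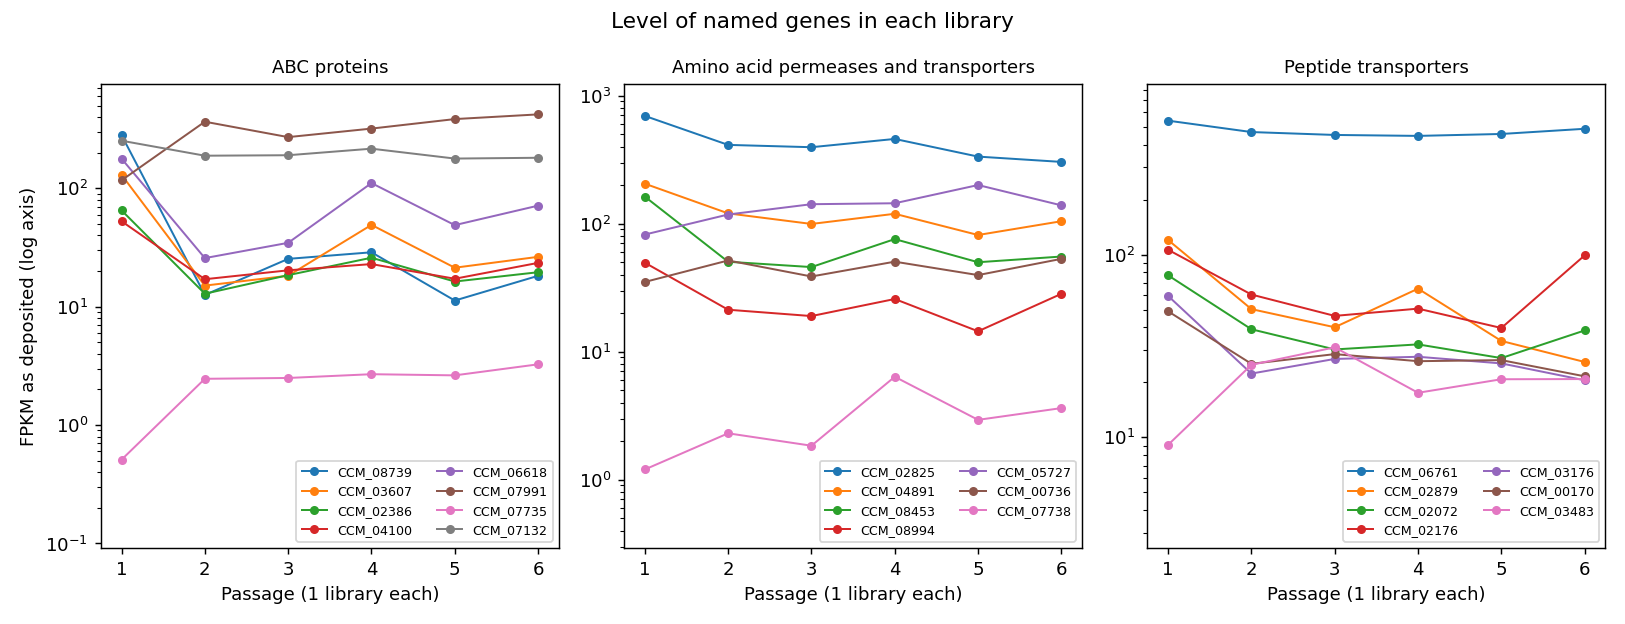
Level of named ABC, amino acid and peptide genes in each library, as deposited FPKM on a log axis against passage number; each point is 1 library and each line 1 gene. CCM_08739 drops from 281 FPKM in passage 1 to below 29 FPKM later, CCM_07991 climbs from 117 FPKM to at least 271 FPKM, and CCM_06761 stays between 446 and 541 FPKM.

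Among the amino acid genes the permeases named Dip5 and inda1 fell. Dip5 (CCM_08453), in yeast the permease for glutamate and aspartate, had 162 FPKM in passage 1 and 50.3, 45.7, 75.7, 49.9 and 55.3 FPKM later. It fell by 1.80 on the log2 scale (SE 0.23, adjusted p = 0.00454), 3.48-fold, and by 1.69 with the length trend removed. The 3 genes named inda1, after an amino acid permease of Trichoderma, all fell. CCM_02825, the most abundant amino acid gene with a mean of 433 FPKM, had 694 FPKM in passage 1 and 412, 395, 458, 334 and 303 FPKM later (log2 -1.11, SE 0.21, adjusted p = 0.0129). CCM_04891 went from 205 FPKM to between 81.4 and 120.2 FPKM (-1.21, SE 0.20, adjusted p = 0.00825). CCM_08994 went from 49.5 FPKM to 14.4 to 28.3 FPKM (-1.43, SE 0.29, adjusted p = 0.0164). In all 4 genes passage 1 was the highest library, and all 4 kept their calls in the 11 alternatives run. Reads of near-identical copies could be split between such genes, and the labels do not say how the counting treated them.

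The other amino acid genes that fell did so by less or less firmly. CCM_00800 had 113 FPKM in passage 1 and 47.8 to 78.3 FPKM later (-1.10, adjusted p = 0.0216, and 0.0512 without passage 5). CCM_04895 has 3 genes between it and CCM_04891 in the order of locus tags. It went from 94.6 FPKM to between 53.7 and 74.8 FPKM (-0.85, edgeR adjusted p = 0.0209, and 0.0558 with the length trend removed). The general permease GAP1 imports most amino acids in yeast and is controlled there by nitrogen supply. Of the 4 genes with that name CCM_09228 alone passed the test, going from 29.9 FPKM to between 20.8 and 27.8 FPKM (-0.56, SE 0.17, adjusted p = 0.0499). It kept that call in only 3 of 11 alternatives, and lost it without passage 2, 3, 4 or 5, with adjusted p of 0.0788, 0.0858, 0.0577 and 0.0899. The others were CCM_08184 (-0.56, adjusted p = 0.260), TCONS_00005374 (-0.30, adjusted p = 0.430) and CCM_07738 (1.26, SE 0.72, adjusted p = 0.233), the last with 1.20 FPKM in passage 1 and 1.84 to 6.36 FPKM later.

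The amino acid gene with the second highest mean went the other way in level. CCM_05727 had 82.1 FPKM in passage 1 and 118, 142, 144, 200.1 and 139 FPKM later, every later library being above passage 1. Its log2 difference of 0.61 (SE 0.29) had an adjusted p of 0.164. The chaperone Shr3 (CCM_05905) and the arg-13 carrier (CCM_05906) are next to each other in the order of locus tags. Shr3 had 41.2 FPKM in passage 1 and 47.9 to 55.4 FPKM later (0.06, adjusted p = 0.797). The carrier had 141 FPKM in passage 1 and 124, 111, 114, 117 and 159 FPKM later, with passage 6 above passage 1 before TMM scaling (-0.41, adjusted p = 0.199, and 0.0393 without passage 6). AGP3 (CCM_00736), in yeast a low-affinity permease, had 35.0 FPKM in passage 1 and 38.6 to 53.0 FPKM later (0.17, adjusted p = 0.612). The basic amino acid transporter of the vacuole, TCONS_00013781, ran from 8.52 to 17.5 FPKM (-0.42, adjusted p = 0.494), and both AGP2 genes (CCM_01800 and CCM_08052) stayed below 1 FPKM and were not tested.

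Among the peptide genes the most abundant one was not called, while several of medium level fell. CCM_06761, an OPT transporter, had 541 FPKM in passage 1 and 468, 452, 446, 457 and 488 FPKM later. Its log2 difference was -0.47 (SE 0.15, adjusted p = 0.0609) and, after removal of the length trend, -0.06 (adjusted p = 0.833). DESeq2 called it lower (adjusted p = 0.0142), as did edgeR without passage 6 (adjusted p = 0.0472). It was the largest part of the peptide family's summed FPKM, which went from 1083 in passage 1 to between 742 and 819 later.

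CCM_02879, an oligopeptide transporter, had 120.2 FPKM in passage 1 and 50.3, 40.0, 65.1, 33.7 and 25.8 FPKM later, with passage 6 the lowest. It fell by 1.73 on the log2 scale (SE 0.38, adjusted p = 0.0203), 3.32-fold. CCM_03176, a small oligopeptide transporter of the OPT family, had 59.4 FPKM in passage 1 and 22.3, 26.8, 27.6, 25.4 and 20.5 FPKM later, and fell by 1.52 (SE 0.17, adjusted p = 0.00345). In both genes passage 1 stood well above the 5 later libraries. CCM_02072 fell by 1.45 (SE 0.21, adjusted p = 0.00575), with 77.0 FPKM in passage 1 and 27.1 to 39.0 FPKM later. CCM_00170 fell by 1.18 (SE 0.16, adjusted p = 0.00499), with 48.9 FPKM in passage 1 and 21.6 to 28.5 FPKM later. These 4 genes kept their calls in all 11 alternatives run.

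CCM_01810 (log2 -1.06, adjusted p = 0.0226) and CCM_06623 (-0.94, adjusted p = 0.0208), both small oligopeptide transporters of the OPT family, fell as well. With the length trend removed their adjusted p were 0.0767 and 0.0874. CCM_02176 had 106 FPKM in passage 1, 39.6 to 60.4 FPKM in passages 2 to 5 and 99.0 FPKM in passage 6, so that passages 1 and 6 were high and the 4 between them low. Its difference of -1.09 (SE 0.42) had an adjusted p of 0.10, and 0.00921 without passage 6. The only peptide gene that rose was CCM_03483, with 9.09 FPKM in passage 1 and 24.9, 31.1, 17.5, 20.8 and 20.8 FPKM later (1.09, SE 0.32, adjusted p = 0.0465). Without passage 2, 3 or 5 its adjusted p was 0.0745, 0.0505 and 0.0771. The tetrapeptide transporter OPT1/isp4 (CCM_06045, 10.2 to 17.1 FPKM over the 6 libraries) had a difference of 0.24 (adjusted p = 0.523), and Mtd1 (CCM_04932, 4.55 to 8.61 FPKM) one of 0.12 (adjusted p = 0.847). PTR2-A (CCM_06863), named after the carrier of di- and tripeptides, was at or below 0.41 FPKM everywhere and was not tested.

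Set against passage 1 one passage at a time, more transporters were at least 2-fold lower than higher in all 5 later passages. These are differences between single libraries with no test, over the same 96 genes, and all 5 share the passage 1 library. In passage 2, 26 were lower and 6 higher, where 20.9% of all genes were at least 2-fold apart, 10.9% lower and 9.96% higher. In passage 3, 33 were lower and 7 higher (26.0% of all genes apart, 13.4% lower and 12.6% higher), and in passage 4, 23 and 4 (20.6%, 9.97% and 10.6%). In passage 5, 33 were lower and 7 higher (25.4%, 13.4% and 12.0%), and in passage 6, 28 and 5 (22.9%, 10.8% and 12.1%). Passage 4 had the fewest lower genes, in the transporters as in all genes.

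By family, the ABC genes had the most at least 2-fold lower in number, and in passages 4 and 6 the peptide genes had the larger share, 30.4% and 39.1% against 26.1% and 32.6% of the ABC genes. Of 46 ABC genes, 12 (passage 4) to 19 (passage 5) were at least 2-fold lower and 2 to 5 higher. Of 27 amino acid genes, 4 to 8 were lower and 0 to 4 higher, the 4 in passage 5. Of 23 peptide genes, 6 in passage 2, 7 in passages 3 and 4, 8 in passage 5 and 9 in passage 6 were lower, and at most 2 were higher. CCM_08739 was the only gene at least 8-fold below passage 1 in every later passage among those with 10 FPKM in either library, from 11.8-fold in passage 4 to 28.7-fold in passage 5. CCM_03607 reached 9.95-fold in passage 2 and 8.70-fold in passage 3, and 3.21-fold in passage 4. Fewer transporters were at least 2-fold lower in each passage with the length trend removed or from FPKM as deposited. The same was not counted over all genes under those settings.

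No transporter was called for a steady change with passage number. The slope over passages 1 to 6 was not called for any of the 102 genes (0 by edgeR at an adjusted p under 0.05), as for 0.0% of all 8758 genes, and DESeq2 and limma also called 0 transporters. At an unadjusted p under 0.05 there were 19, beside 1129 of the 8758 genes. Of the 19, the oligopeptide transporter CCM_02879 had a slope of -0.40 log2 per passage (SE 0.10, adjusted p = 0.380). For CCM_08739 the slope was -0.78 (SE 0.23, adjusted p = 0.380), for CCM_02825 it was -0.23 and for Dip5 it was -0.28. These slopes take in the step from passage 1 to passage 2. Without passage 1 the count called was 0 as well.

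Genes of nitrogen uptake and of peptide breakdown were looked at from lists drawn up by description. Whether they act with these transporters was not tested. Of 33 genes of nitrogen uptake and its control, 32 were tested, 4 fell and 0 rose (3 were higher at an unadjusted p under 0.05), with a median log2 difference of 0.15. The 4 of 32 stand beside the 14.4% of all genes that fell, and limma on log2(FPKM + 1) called 3 risen and 2 fallen of 30. The nitrogen regulator areA (CCM_03599), which in Aspergillus switches on permease and other nitrogen genes, had 71.7 FPKM in passage 1 and 30.5, 27.2, 28.5, 23.9 and 26.2 FPKM later. It fell by 1.64 (SE 0.15, adjusted p = 0.00319), and by 1.29 after removal of the length trend (adjusted p = 0.00694). The others were nitrogen permease regulator 2 (CCM_05453, -0.79, adjusted p = 0.00948), a purine permease (CCM_06042, -0.96, adjusted p = 0.0284) and glutamate synthase (CCM_03495, -0.73, adjusted p = 0.0295). With length removed the last was at -0.03 (adjusted p = 0.926). A second gene named nitrogen permease regulator 2 (CCM_00101) was not called (-0.25, edgeR adjusted p = 0.2865).

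Of 76 genes of peptide breakdown, 68 were tested, 9 rose and 6 fell, with a median of 0.05, beside 0.05 over all genes, of which 9.58% rose and 14.4% fell. By limma on log2(FPKM + 1) 16 of 65 rose and 2 fell, where 1761 of all genes rose and 729 fell. The extracellular dipeptidyl peptidase Dpp4 (CCM_08287), which cuts dipeptides from chain ends, had 8.22 FPKM in passage 1 and 34.7, 32.1, 29.8, 33.9 and 20.02 FPKM later (1.63, SE 0.34, adjusted p = 0.0177). The tripeptidyl peptidase SED3 (CCM_03029) had 0.84 FPKM in passage 1 and 3.79 to 12.7 FPKM later (2.89, SE 0.75, adjusted p = 0.0326). Both peptidases were above passage 1 in all 5 later libraries. A second gene named SED3 (CCM_01825) had 5.25 FPKM in passage 1 and 3.08 to 4.93 FPKM later, and was not called (-0.65, edgeR adjusted p = 0.140). A dipeptidyl aminopeptidase (CCM_07274) fell by 1.00 (adjusted p = 0.00463), from 117 FPKM to between 65.8 and 72.7 FPKM.

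The deposited table of sequence variants bears on these genes too. It lists sites that differ from the reference strain, with a genotype code and the reads for either base in each passage. Of the 109 transporters in the reference annotation, 102 had at least 1 site, with a median of 15, where the median of all 9651 reference genes was 8. These numbers were not scaled to gene length. The median tested transporter was 2.45 kb long, against 1.39 kb for all genes tested. Of the 1905 sites, 58.1% were coded as fixed for the other base in all 6 passages, against 70.2% over all genes. Sites that change the protein per silent site were 0.385 in the ABC genes, 0.174 in the amino acid genes, 0.163 in the peptide genes and 0.378 over all genes. A code needs reads, so genes with few reads can have sites that were not seen.

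In 16 of the 109 genes (14.7%, against 12.1% of all reference genes) a site coded as carrying 1 base in passage 1 was coded as carrying both in a later passage. In 7 genes (6.42%, against 2.83%) there were at least 5 such sites, with gene length not taken into account. They were the ABC genes CCM_08739, CCM_06538 and CCM_07735, the amino acid genes CCM_06577, CCM_07738 and CCM_07762, and the peptide gene CCM_07766. They lay on 3 scaffolds. CCM_07735, CCM_07738, CCM_07762 and CCM_07766 fell within a run of 32 locus tags, of which 20 had at least 5 such sites, and CCM_06538 and CCM_06577 bounded a run of 40, of which 24 did.

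In all 7 genes the base missing in passage 1 was in most reads by passage 6. In CCM_08739, over 32 of its 69 sites, that base was in 0.113% of 6191 reads in passage 1 (Wilson 95% interval 0.055% to 0.233%) and in 18.5%, 2.66%, 54.2%, 43.6% and 78.1% in passages 2 to 6. The intervals cover counting error only, and a read over several sites counts at each. At 14 of the 32 sites passage 1 had the reference base, and at 18 the other, so the change was not towards or away from the reference strain alone. In CCM_06538, over 18 sites, the share was 1.37% in passage 1 and 94.9%, 62.6%, 96.0%, 98.3% and 97.0% later. In the GAP1 gene CCM_07738, over 12 sites, it was 0 of 55 reads in passage 1, which allows up to 5.45%, and 59.8%, 27.5%, 81.8%, 63.7% and 98.3% later.

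The order of the passages was alike in these genes: the share was lowest of the later passages in passage 3, higher in passage 2, and higher again in passages 4 to 6. In CCM_07762, over 13 sites and 981 to 1900 reads a passage, it was 0.917%, 48.3%, 18.8%, 73.6%, 58.6% and 85.4%. In CCM_06577 it went from 0 of 201 reads (up to 1.49%) to 75.8% in passage 6, and in CCM_07766 from 0 of 90 reads (up to 3.33%) to 79.3%. In CCM_07735, over 8 sites, it was 7.14% of only 28 reads in passage 1 (interval 1.98% to 22.7%) and 62.9% to 97.7% later. The low value in passage 1 follows from how the sites were chosen, and so does a mixed code in at least 1 later passage. A site that went from 1 base to the other without a mixed code was left out. The choice did not set which of the later passages had the higher share. Of these 7 genes CCM_08739 and CCM_07735 were called between passage 1 and the later passages, 1 lower and 1 higher. Of all 8758 genes tested 24.0% were called. CCM_07762 (log2 -0.95) was not called in the fit reported, but was in 4 of 11 alternatives. A part of read mapping to either base in these differences was not tested.

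**Figure D4:**
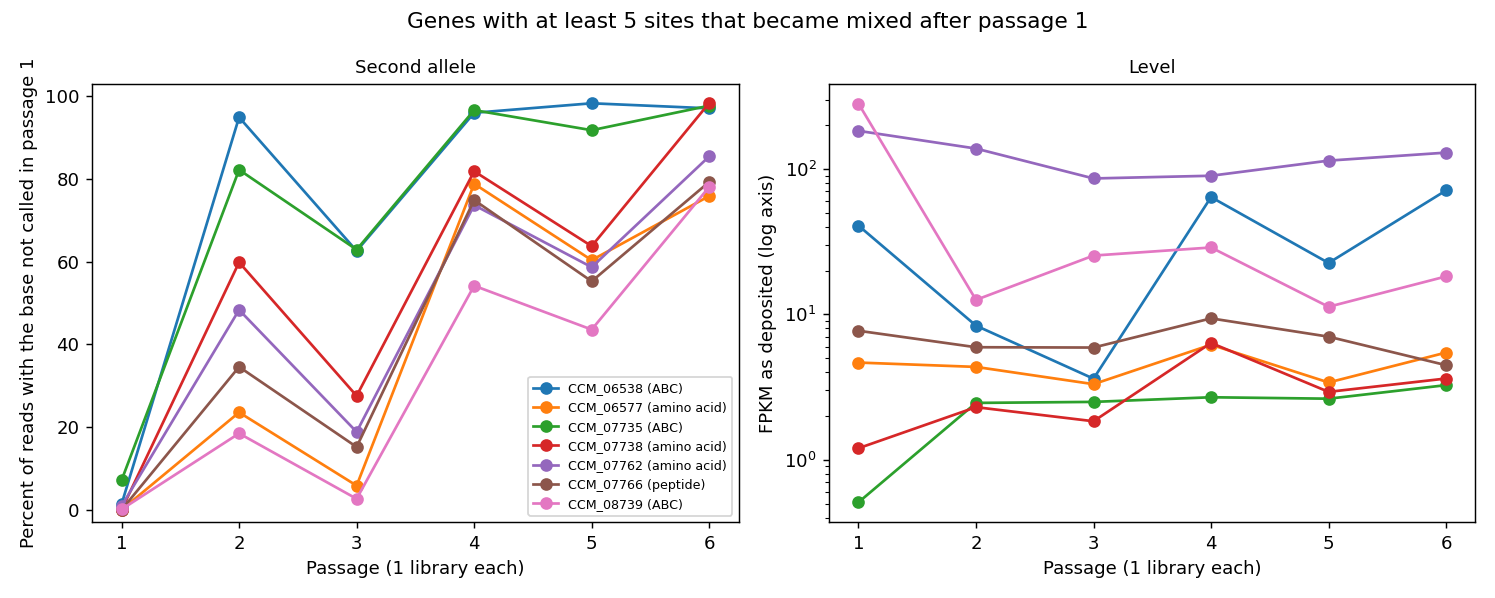
The left panel plots, for the 7 transporters with at least 5 sites that became mixed after passage 1, the percent of reads with the base not called in passage 1, and the right panel their level as deposited FPKM on a log axis, both against passage number with 1 library a point. All 7 lines on the left are at or below 7.14% in passage 1, dip in passage 3 and end at or above 75.8% in passage 6, while the levels on the right move in different directions.

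Changes that would shorten a protein were few. A stop codon not in the reference strain was listed in 3 transporters (2.75%, against 1.18% of all reference genes). They were the ABC genes CCM_00190 and CCM_07735 and the peptide gene CCM_07947, each from at most 5 reads in a library. The stop in CCM_00190 and 1 stop in CCM_07947 were coded as the other base in all 6 passages. The stop in CCM_07735 was coded in passage 4 alone, from 3 reads. Passages 1, 2, 3 and 5 had 0 reads there, and passage 6 had 1 read of the reference base and no code. A frameshift was listed in 8 (7.34%, against 5.84%), and gene length was not taken into account in these shares. The best covered was in the amino acid transporter CCM_04895, where an insertion was in all 51 reads in passage 1 and in all 33, 23, 35, 25 and 34 reads later. It was a fixed difference from the reference strain, as was an insertion in CCM_09390, in 9 to 27 reads a passage.

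Splice junctions in the transporters mostly matched their gene models. Of 243 junctions in 79 transporters, 79.8% were of the class known, against 64.8% of 17150 junctions over all genes, and 5.35% were of the intron retention class, against 8.27%. CCM_07735 stood apart. A junction of the intron retention class was assigned to it with 71, 1100, 420, 1224, 769 and 2193 reads in passages 1 to 6, more than the expected count of the whole gene, which was 24 in passage 1 and 214 in passage 6. Not all of these reads can therefore be part of the count behind the increase of CCM_07735 given above. The share of the base missing in passage 1 and these junction reads were both lowest of the later passages in passage 3.

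In the authors' deposited tables of each later passage against passage 1, 55 of the 114 transporters were listed at least once and none both higher and lower. The authors' deposited table for passage 2 lists 7 higher and 19 lower transporters, among 1253 higher and 639 lower genes. In the authors' deposited tables for passages 3, 4 and 5 the numbers higher and lower were 11 and 24, 8 and 15, and 11 and 28, among 1729 and 769, 1511 and 495, and 1437 and 836 genes. For passage 6 the authors' deposited table lists 12 higher and 22 lower, among 1602 higher and 586 lower genes. Lower in all 5 of the authors' deposited tables were 9 transporters: the ABC genes CCM_02004, CCM_02386, CCM_03607, CCM_04100, CCM_04201, CCM_04460 and CCM_08739, Dip5 and the peptide gene CCM_03176. In all 5 of the authors' deposited tables CCM_07735 and CCM_07991 were higher. These tables compare 1 library with 1, and they all use the same passage 1 library. How many of all genes were listed at least once, or in all 5, was not counted. No share over all genes therefore stands beside those numbers of transporters.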

How the data were processed

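Polyadenylated RNA of 6 mycelium libraries, 1 for each passage, was analysed from tables deposited by the authors. FPKM and expected counts per gene were made by the authors, and the submitters' processing notes name FastQC, Bowtie, TopHat2, Cufflinks and edgeR without versions or roles. The sources used here do not give the genome build, the strand use or the treatment of shared reads. Per the file headers, the deposited variant table gives a quality score, genotype codes and read numbers for each base per sample, and the junction tables give counts of reads per splice junction. The authors' deposited comparison tables give log2 fold changes and false discovery rates (adjusted p-values) of each later passage against passage 1.

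Genes were taken by their descriptions, and the members and gene lists were chosen with earlier results of these data known. Names and gene order came from the RefSeq gene table, which matched 109 of the 114 members. The other 5 lie outside the reference annotation, and no coordinates were used. Related lists were matched at word starts. Expected counts, of which few were not whole, were rounded, filtered with filterByExpr (8758 genes kept), scaled by TMM and fitted with edgeR 4.0.16 (quasi-likelihood) in R 4.3.3, with Benjamini-Hochberg adjustment over all genes tested and a threshold of 0.05. Passages 2 to 6 formed 1 group against passage 1, and a second fit used passage number. The p-values set a difference against the spread between single libraries, which in the first fit comes from passages 2 to 6. The FPKM given are the deposited ones, without TMM. Single passages were compared with passage 1 as log2 library-scaled counts (prior count 1), for the 8483 genes averaging 1 FPKM or more, and called at 2-fold. Alternatives were DESeq2 1.42.0, its size factors, limma 3.58.1 on log2(FPKM + 1) and log2(FPKM + 0.1), no filter, a 5 FPKM minimum, FPKM in place of scaled counts, a loess trend in log gene length removed from each library, and each passage left out. The fits were also run on simulated counts, drawn with the same spread for every library and no trend in gene length. That run checks the working of the fits and not the calls made here. No set test was run. Wilson intervals are at 95% and cover counting error only, and a share of 0 was given the limit of 3 reads.

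Named genes were called members (at most 10 per direction and family), the 2 highest of each family, those called in the trend, those at least 8-fold from passage 1 with 10 FPKM in either library, and those whose description names a gene or a substrate, 49 in all. For variants and junctions the members with the most sites, a changed stop codon or an unusual junction were named. Deposited columns not used numbered 56 with per-sample values, and the RNA editing, gene structure and new gene tables were not used.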

Additional observations from a re-analysis of the deposited data

Results flagged for a closer look

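Among the later passages of the 46 named transporters with a test, 2 had 1 library far from the other 4, where chance gives about 1 in 20. The vacuolar ABC transporter VMR1 (CCM_03167) had 5.37 FPKM in passage 4, above 2.27 to 2.92 FPKM in the other later passages. The amino acid transporter CCM_05727 had 200.1 FPKM in passage 5, above 118 to 144 FPKM in the other later passages. The comparison was made on log2 TMM-scaled counts, where the gaps to the nearest library were 0.718 and 0.715 of the whole range, above the critical value of 0.71 for 5 samples. Measured in FPKM the gap was 0.79 for VMR1 and 0.679, under the critical value, for CCM_05727. In FPKM it was above 0.71 also for arg-13 (CCM_05906, 0.737), CCM_07501 (0.773) and CCM_07735 (0.712), whose gaps on the log2 scale were 0.582, 0.699 and 0.628.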

How the results depend on the processing

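No paired analysis was possible because each passage has 1 library and the replicate number is the same for all. No called gene changed direction under these alternatives; of the 71 transporters tested and not called, 14 changed sign with the length trend removed. Among the named genes not called, CCM_06538 went from -0.52 to 0.08 and Shr3 (CCM_05905) from 0.06 to -0.32 with the length trend removed, and Mtd1 (CCM_04932) from 0.12 to -0.0072 without passage 2. With the length trend removed, 5 ABC genes rose (3 in the fit reported) and 8 fell (14), and 17 of all transporters fell (27). With limma on log2(FPKM + 0.1) and log2(FPKM + 1), 7 and 8 ABC genes and 8 and 9 of all transporters rose (4), and 4 amino acid genes fell in either (7); on the second scale the median of all genes was 0.24 in place of 0.05, and 1761 of all genes rose and 729 fell. Leaving out each later passage in turn gave 2 to 5 ABC genes risen and 13 to 15 fallen, 0 to 0 and 5 to 9 amino acid genes, 0 to 1 and 6 to 10 peptide genes, 2 to 6 and 24 to 33 of all transporters, and 0 to 0 called in the trend. The numbers of transporters at least 2-fold from passage 1 moved as follows. The same was not counted over all genes under these settings, so no share over all genes stands beside them. With FPKM as deposited, 15, 20, 11, 21 and 16 were lower in passages 2 to 6 and 8 were higher in passage 6. With a 5 FPKM minimum, 3, 4, 1, 3 and 2 were higher in passages 2 to 6. With no filter, 11 were higher in passage 5 and 8 in passage 6. With the length trend removed, 11 were higher in passages 3, 5 and 6, and 21, 15 and 16 were lower in passages 3, 4 and 6. Of the 46 named genes with a test, calls ended for 9 with the length trend removed, for 6 and 5 with limma, for 1 with no filter and for at most 3 without any 1 passage, while calls were gained for 2 with DESeq2, for 2 without passage 4 and for 3 without passage 6. A higher minimum leaves fewer genes; other causes were not tested. In the trend DESeq2 called 0 transporters as well. Genes below 1 FPKM rest on few counts, and no passage has a second library.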

Other observations

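A few transporters outside the naming rule are added here, chosen after their values were seen. The ABC transporter CCM_05570 had 184 FPKM in passage 1 and 106 to 141 FPKM later and fell by 0.88 on the log2 scale (edgeR adjusted p = 0.0172, and 0.0483 with the length trend removed). CCM_04985, the remaining ABC gene that fell, was near 1 FPKM in every library (-0.76, adjusted p = 0.0454, and 0.634 with the length trend removed), a call that held in 1 of 11 alternatives. The amino acid transporter CCM_04917 had 24.2, 34.3, 40.8, 49.5, 76.7 and 56.7 FPKM in passages 1 to 6, each library up to passage 5 above the one before, with a slope of 0.26 log2 per passage (adjusted p = 0.380). The oligopeptide transporter CCM_06774 had 4.10 FPKM in passage 1 and 1.09 FPKM in passage 6, with a slope of -0.34 (adjusted p = 0.380).

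Some transporters lie next to each other in the order of locus tags and differ in level. Others do not differ in direction, as CCM_04891 and CCM_04895 both fell. For CCM_07122 with CCM_07123, and CCM_08507 with CCM_08509, it was not known whether both genes lie on the same scaffold. CCM_03605 has 1 gene between it and CCM_03607 and stayed between 0.95 and 2.87 FPKM, while CCM_03607 fell from 130.0 FPKM. CCM_07123 lies beside CCM_07122, which had no count, and had 5.33 FPKM in passage 1 and 10.6 to 18.9 FPKM later (1.19, edgeR adjusted p = 0.0527). CCM_08509, with 1 gene between it and the nearly silent peptide gene CCM_08507, had 3.58 FPKM in passage 1 and at least 5.95 FPKM later (0.59, adjusted p = 0.0525, and 0.0112 with the length trend removed).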
